A study of Mus musculus with 12 samples.

Results

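The genes described here were 41 symbols of the interferon system: genes that interferon induces, the interferon regulatory factors (IRFs), Stat2 and the interferon receptors. Their H3K27ac was read from the deposited table of tag counts in 1000-bp windows over accessible sites. A window belonged to a gene if the table named that gene as the nearest and placed the window within 100 kb of the transcription start site (TSS). By this rule 36 of the 41 symbols had at least 1 window, among 15879 genes with windows, and they held 174 of the 63386 windows within that distance. No window was named for Oas1a, Oas2, Oas3, Oasl2 and Ifi44.

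H3K27ac, acetylation of lysine 27 of histone H3 at active promoters and enhancers, was measured by chromatin immunoprecipitation and sequencing (ChIP-seq) in microglia, the resident macrophages of the brain. The cells were taken from forebrain with magnetic beads against CD11b, a surface integrin that other myeloid cells also carry. Wild-type mice on a C57BL/6N background were set against Cias1-knockout mice, named Nlrp3-/-, which lack the sensor protein of the NLRP3 inflammasome. Each genotype had 3 H3K27ac and 3 input (sonicated chromatin without precipitation) libraries, and no treatment or cell-specific driver is named. The labels give no age or sex and do not say whether replicates were separate animals. The p-values therefore measure the spread between these libraries, which may in part be technical.

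Interferons bind receptors on the cell surface and activate receptor-bound kinases that phosphorylate STAT proteins. After type I interferon, a complex that contains STAT2 and IRF9 binds the interferon-stimulated response element (ISRE) in promoters and switches on antiviral genes. The gamma-activated site (GAS) is the corresponding element of the type II response. In microglia the pathway is known from viral infection, ageing and amyloid disease, where a subset of the cells takes on an interferon-induced state.

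Depth ran from 3726550 to 5028129 total tags in the H3K27ac libraries (39.1% to 46.1% inside windows) and from 3287009 to 6961590 in the inputs (8.31% to 9.32%). The libraries followed their genotype labels at the targeted gene: the Nlrp3 promoter window at chromosome 11, 59542134 to 59543134 (mm10), held 180, 180 and 195 tags in the wild-type libraries and 1, 0 and 16 in those of the knockout. Another Nlrp3 promoter window (59541020 to 59542020) held 138, 91 and 119 tags in wild type and kept 17, 20 and 43 in the knockout. Some libraries stood apart. Wild-type replicate 1 held 0 H3K27ac tags at 3 Y-linked genes (Uty, Eif2s3y and Ddx3y, promoter windows summed), where the other 5 libraries held 183 to 239. Its input held 0 there too, where the other inputs held 2 to 13. The wild-type group was thus mixed in Y-linked signal and the knockout group was not. Values from fits without wild-type replicate 1 are given at the end, and the effect of the Y-linked difference itself was not tested. The first and second principal components were led by wild-type replicate 3 (31.3% of variance) and knockout replicate 3 (23.2%). Promoters of 11 of 11 microglia markers lay above input in both genotypes. Markers of other cells were mostly without a promoter window: 0 of 7 neuronal genes, 1 of 11 lymphocyte, 1 of 9 monocyte and neutrophil, 1 of 7 astrocyte and 2 of 7 border macrophage genes had one, and of these 5 windows 0 lay above input in either genotype. Of the 2 of 7 oligodendrocyte promoters with a window 1 lay above input in each genotype, and of the 4 of 7 endothelial ones 1 did in wild type and 2 in the knockout. The 4 endothelial marker promoters with a window summed to 5.37 to 12.5 tags per 1000000 total tags in wild type and 12.6 to 14.1 in the knockout, with 0 of 5 tested endothelial genes called, and their part in the values below was not tested.

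Promoter letters were examined first, because the ISRE is the sequence through which type I interferon reaches these genes. RefSeq promoters (GRCm38.p6, the assembly of mm10) were found for 32 of the 41 genes, as 38 promoters. None was found for Mx1, Mx2, Oas2, Usp18, Dhx58, Rtp4, Parp14, Parp9 and Zbp1, so these interferon-induced genes were not searched. In each promoter found, the 250 bases before the TSS were searched on both strands for the ISRE core (GAAA, any 2 bases, GAAA) and the GAS core (TTC, any 3 bases, GAA). The ISRE core stood in 11 of the 38 promoters (28.9%) and in 978 of 32851 promoters of the whole table (2.98%). It was present in 9 of 25 promoters of interferon-induced genes and in 2 of 13 promoters of IRFs, Stat2 and receptors, namely those of Irf2 and Stat2. The GAS core stood in 7 of 38 promoters (18.4%), against 7.02% of all promoters, and the ISRE and GAS cores were searched separately, so overlapping matches count for both. A match describes the letters and does not show that a factor was bound.

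The sequences shown are the promoters with an ISRE core whose genes had the highest wild-type H3K27ac at a promoter window, together with Rsad2, which was added for its values given below and had 1 of the lowest. Each runs 5′ to 3′ on the coding strand and ends just before the TSS, and capitals mark ISRE cores on either strand, merged where they overlap.

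Isg15 (chr4:156200819-156201068, minus strand): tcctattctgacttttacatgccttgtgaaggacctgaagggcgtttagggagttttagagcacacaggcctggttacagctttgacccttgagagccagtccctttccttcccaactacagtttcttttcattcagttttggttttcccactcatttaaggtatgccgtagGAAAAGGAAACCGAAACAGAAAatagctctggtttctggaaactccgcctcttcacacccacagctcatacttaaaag
Irf2 (chr8:46739495-46739744, plus strand): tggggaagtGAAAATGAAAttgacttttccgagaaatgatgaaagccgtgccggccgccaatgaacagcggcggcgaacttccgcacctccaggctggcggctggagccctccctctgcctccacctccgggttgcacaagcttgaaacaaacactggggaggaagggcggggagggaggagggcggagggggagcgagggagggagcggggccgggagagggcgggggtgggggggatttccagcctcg
Bst2 (chr8:71537473-71537722, minus strand): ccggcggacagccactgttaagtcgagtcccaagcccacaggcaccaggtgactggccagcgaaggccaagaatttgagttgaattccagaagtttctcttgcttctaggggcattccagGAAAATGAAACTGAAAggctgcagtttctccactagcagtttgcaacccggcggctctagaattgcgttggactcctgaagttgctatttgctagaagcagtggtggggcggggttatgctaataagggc
Stat2 (chr10:128270248-128270497, plus strand): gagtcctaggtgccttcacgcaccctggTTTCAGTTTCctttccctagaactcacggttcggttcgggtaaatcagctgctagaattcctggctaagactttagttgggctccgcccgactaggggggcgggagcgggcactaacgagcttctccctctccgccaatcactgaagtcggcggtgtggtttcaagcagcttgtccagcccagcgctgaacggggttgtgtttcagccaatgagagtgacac
Trim30a (chr7:104465194-104465443, minus strand): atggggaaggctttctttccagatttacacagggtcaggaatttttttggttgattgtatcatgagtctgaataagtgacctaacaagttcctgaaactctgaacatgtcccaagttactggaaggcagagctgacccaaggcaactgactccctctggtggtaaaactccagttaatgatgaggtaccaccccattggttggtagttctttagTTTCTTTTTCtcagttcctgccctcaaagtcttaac
Cxcl10 (chr5:92348890-92349139, minus strand): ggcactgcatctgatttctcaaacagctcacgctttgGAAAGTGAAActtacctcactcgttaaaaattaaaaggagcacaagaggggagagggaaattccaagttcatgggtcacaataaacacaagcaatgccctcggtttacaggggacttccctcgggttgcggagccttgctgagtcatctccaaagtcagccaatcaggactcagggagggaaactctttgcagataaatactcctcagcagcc
Rsad2 (chr12:26456453-26456702, minus strand): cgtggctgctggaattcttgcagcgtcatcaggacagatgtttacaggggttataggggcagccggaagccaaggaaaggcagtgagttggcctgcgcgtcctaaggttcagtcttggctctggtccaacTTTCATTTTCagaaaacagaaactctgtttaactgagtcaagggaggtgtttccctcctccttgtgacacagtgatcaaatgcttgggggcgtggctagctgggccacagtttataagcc

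Isg15 carried 3 overlapping ISRE cores between 78 and 57 bases upstream of its TSS, and Bst2 carried 2 between 130 and 115 bases upstream. Irf2, Stat2, Trim30a, Cxcl10 and Rsad2 carried 1 each, nearest to the TSS in Trim30a (36 to 27 bases upstream) and farthest in Irf2 (241 to 232 bases upstream). Of the bases shown, all 250 lay inside the measured promoter window for Isg15, Bst2, Stat2, Cxcl10 and Rsad2. For Irf2 the measured window covered 3 of the 250 bases, and for Trim30a it lay at another annotated start and covered 0. Another Trim30a window (chromosome 7, 104464743 to 104465743) did cover the printed bases. It held 50, 32 and 25 tags in wild type against 38, 35 and 43 in the knockout, a log2 fold change (knockout over wild type) of −0.11 (SE 0.41). The window overlapping it (104465163 to 104466163) covered the same bases and held 37, 36 and 38 tags against 29, 53 and 46 (−0.01, SE 0.39). The remaining ISRE cores belonged to Ifit1, Ifit3, Oas1a and Oas3, none of which had a promoter window.

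Where H3K27ac stood on the pathway was described next, from the window nearest the TSS (at most 1 kb away) and on a scale that allows genes to be compared: tags per 1000000 total tags (CPM) in windows of equal length. Such a window existed for 30 of the 41 genes. By median level receptors and IRFs led the list, and Rsad2 and Cmpk2 ended it. All 3 H3K27ac libraries lay above all 3 input libraries at 23 of the 30 promoters in wild type and at 24 in the knockout, against 73% and 75.5% of the 11591 promoter windows of all genes, so as a whole the list lay near the background. The median ratio of H3K27ac to input (0.5 CPM added to both) was 5.48 in wild type and 5.72 in the knockout for these 30 promoters, and 4.998 and 5.46 for all promoters. Within the list it was 9.41 and 14.6 for the 4 receptors, 9.01 and 8.68 for 5 IRFs, and 3.17 and 3.95 for 20 interferon-induced genes.

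**Figure D1:**
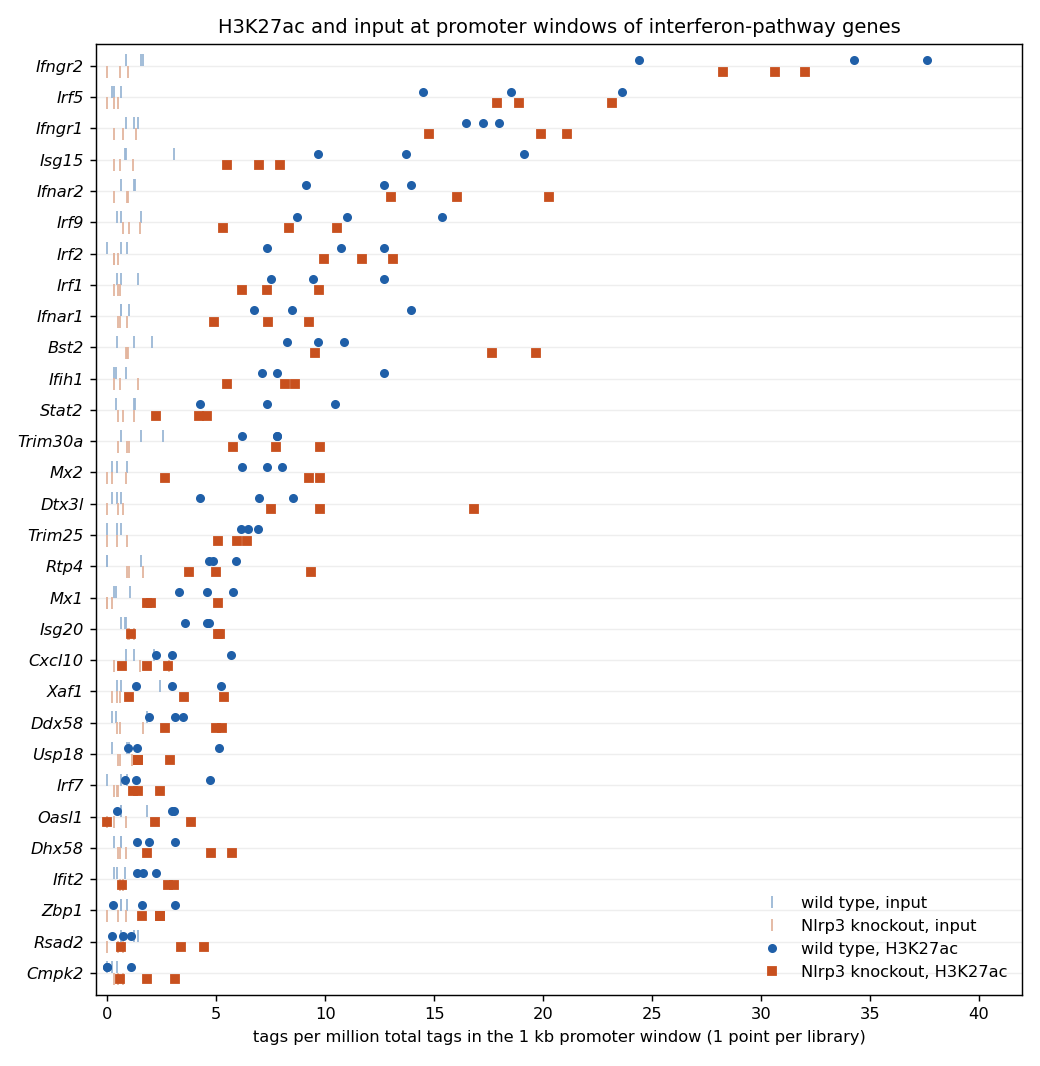
H3K27ac and input at the promoter windows of 30 interferon-pathway genes, ordered by wild-type mean. The x axis gives CPM on total tags in the 1 kb window, each symbol is 1 library (3 per group), circles are wild type and squares the Nlrp3 knockout, and thin bars are the inputs. Ifngr2, Irf5 and Ifngr1 lead, and the 3 wild-type libraries at Rsad2 lie below the highest input there.

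Among the receptors, the promoter of Ifngr2, a chain of the type II interferon receptor, held 91, 169 and 145 tags in wild-type replicates 1 to 3 and 128, 161 and 151 in the knockout. This was the highest level of the list, 32.1 ± 6.86 CPM on total tags in wild type and 30.3 ± 1.91 in the knockout (mean ± SD, n = 3 per group here and below), and it stood at the 97.8th percentile of all promoter windows in wild type. Ifngr1, the ligand-binding chain of the same receptor, had 17.2 ± 0.75 and 18.6 ± 3.34 CPM at its promoter. The groups overlapped at both promoters. The type I receptor chains stood lower in wild type: Ifnar2 had 11.9 ± 2.50 CPM at its promoter and Ifnar1 9.70 ± 3.77, and these 2 levels did not differ beyond their spread.

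The leading IRF was Irf5, a factor downstream of Toll-like receptors in macrophages, with 69, 65 and 100 promoter tags in wild type against 81, 95 and 114 in the knockout, or 18.9 ± 4.59 and 20.0 ± 2.79 CPM. Irf9, the DNA-binding partner of STAT2, had 11.7 ± 3.39 CPM in wild type, Irf2, a repressor of interferon responses, 10.2 ± 2.71, and Irf1, an activator induced by type II interferon, 9.88 ± 2.61. These 3 neighbours in the order did not differ beyond their spread. Irf7, the factor that amplifies type I interferon production and is itself interferon-induced, had 2.29 ± 2.13 CPM, and its wild-type libraries were not all above the inputs. Irf3, the constitutive activator of interferon beta transcription, had no window within 1 kb.

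The interferon-induced genes split widely. Isg15, the ubiquitin-like modifier, had the highest promoter level among them in wild type, 14.2 ± 4.76 CPM, and ranked 4 of 30. Bst2 (tetherin, which holds budding virions at the membrane) had 9.59 ± 1.32 and Ifih1 (the RNA sensor MDA5) 9.19 ± 3.05. At the other end were Dhx58 (the RNA sensor LGP2) with 2.12 ± 0.91 CPM, Ifit2 (an RNA-binding antiviral protein) with 1.74 ± 0.45, Zbp1 (a Z-nucleic acid sensor) with 1.65 ± 1.44, Rsad2 with 0.67 ± 0.43 and Cmpk2 with 0.36 ± 0.62. Wild-type input at the last 2 promoters was 1.09 ± 0.41 and 0.21 ± 0.21 CPM, so at this depth H3K27ac there was not detectable above input.

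The question set by the labels, whether H3K27ac differs between knockout and wild-type microglia, was then asked per gene, with the tags of all its windows summed, and per window. Differences were tested with edgeR's quasi-likelihood test and Benjamini-Hochberg adjustment over all features, and a gene or window was called at an adjusted p below 0.05. Across the genome 25 of 12148 tested genes (0.206%) and 24 of 40370 tested windows (0.0595%) were called. None of the interferon-system genes was among them: 0 of 34 tested genes and 0 of 117 tested windows were called by edgeR, and 0 by DESeq2. Ifit1 and Cmpk2 fell below the count filter, and the 117 windows lay at 30 of the genes. The smallest edgeR adjusted p was 0.379 for a gene and 0.892 for a window.

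At an unadjusted p below 0.05 edgeR found 3 of the 34 genes, against 5.77% of all tested genes, and 6 of the 117 windows, against 4.69% of all. DESeq2, which tested 36 of the genes and 173 of their windows, found 3 genes and 11 windows at that level, against 776 of 15760 genes and 3863 of 67051 windows in all. The 3 genes were Rsad2, Isg15 and Ifnar2, and the 6 windows lay at Isg15, Ifnar2, Ifngr1, Ifitm3 and Irf2, which had 2. Counts this near the background are no result about the list. Of the 34 genes, 18 had a positive and 16 a negative log2 fold change (knockout over wild type), with a median of 0.05 and a range from −1.08 to 2.51, and the median over all genes was 0.0013. Of the 117 windows 56 were positive and 61 negative, with a median of −0.01. Within the list, 15 of 23 interferon-induced genes were positive (median 0.11) and 8 of 11 IRF, STAT and receptor genes were negative (median −0.10), with 0 called in either. In chromatin of many cells, fewer marked cells and less signal per cell cannot be told apart.

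The 2 genotypes did not overlap at 6 genes, higher in the knockout at Rsad2 and Zbp1 and lower at Isg15, Parp9, Ddx58 and Trim25. Among all tested genes, 5.47% lay higher without overlap and 5.83% lower. At single windows 9 of 117 lay higher and 7 lower, against 5.48% and 5.4% of all tested windows. None of these differences passed the test.

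**Figure D2:**
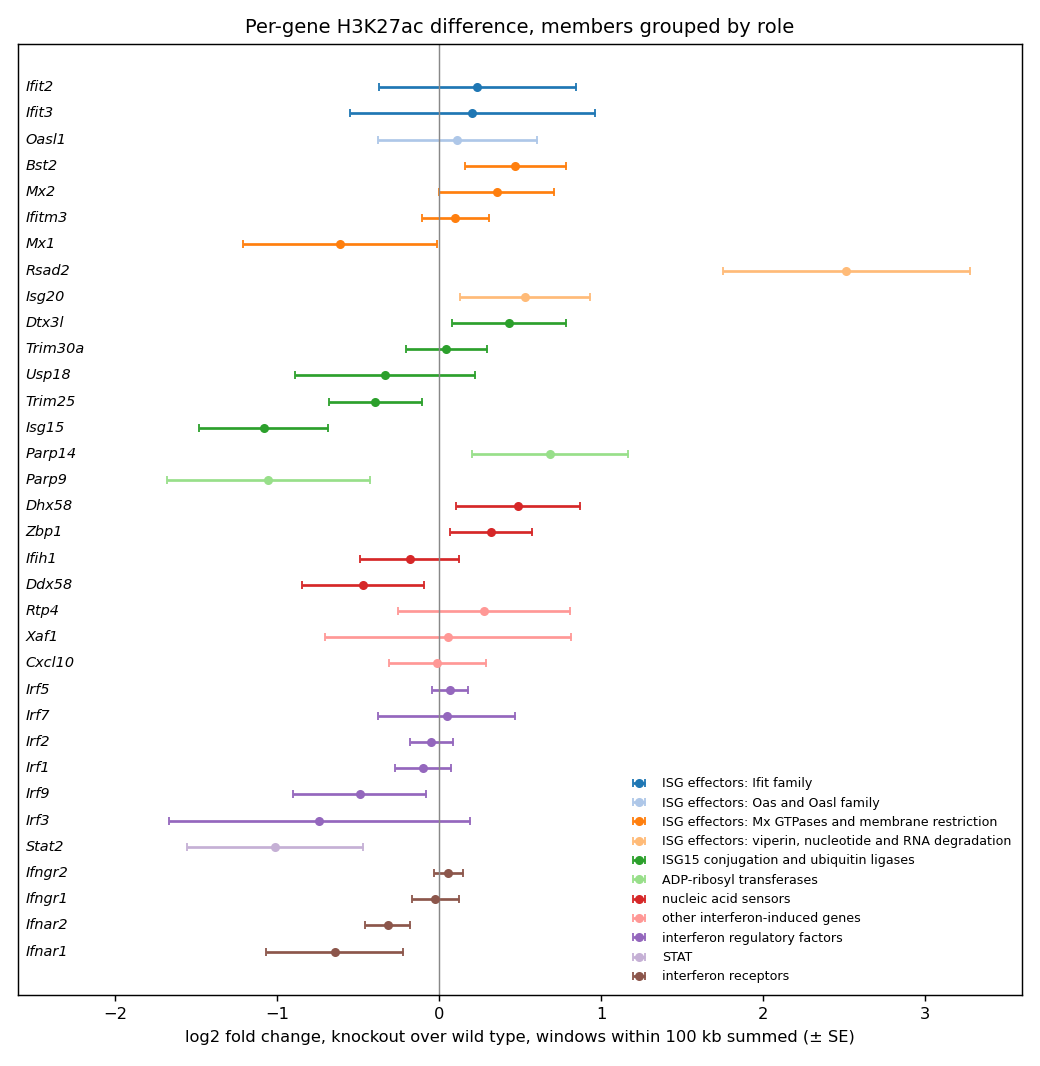
Log2 fold change (knockout over wild type) of H3K27ac summed per gene over windows within 100 kb, for the 34 tested genes in order of role. Points are fitted values and bars ± 1 SE from the edgeR fit (3 against 3 libraries). Rsad2 stands at 2.51, the remaining genes lie between −1.08 and 0.69, and 0 were called.

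Rsad2 encodes viperin, an enzyme that makes a chain-terminating nucleotide from the product of its neighbour Cmpk2, and it had the largest fold change of the list. Its windows held 8, 2 and 3 tags in wild-type replicates 1, 2 and 3 and 29, 21 and 38 in the knockout. Every knockout library was above every wild-type library, from few tags: the level was 2.71 ± 2.19 TMM-normalized CPM (trimmed mean of M values, the scale of the fit, on tags in tested genes, used for all values per gene from here on) in wild type and 15.6 ± 5.80 in the knockout. The log2 fold change was 2.51 (SE 0.76), with an edgeR quasi-likelihood adjusted p of 0.379 over all genes, and it ranged from 2.16 to 3.36 with 1 library left out. Under all alternatives run the adjusted p lay between 0.170 and 0.891.

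The tags of Rsad2 did not lie in the same place in all knockout libraries. Its promoter window (chromosome 12, 26456017 to 26457017, mm10), which holds the ISRE core printed above, had 4, 1 and 3 tags in wild type against 20, 17 and 3 in the knockout, with input at 3, 7 and 4 and at 5, 0 and 2. A window 3799 bp upstream of the TSS (26459751 to 26460751) had 4, 1 and 0 tags in wild type against 9, 4 and 35 in the knockout. Knockout replicates 1 and 2 thus carried most of their tags at the promoter and replicate 3 most of its tags upstream, and neither window had enough tags to be tested alone. Cmpk2, a mitochondrial nucleotide kinase gene whose start lies 12665 bp from that of Rsad2, had 4, 0 and 0 promoter tags in wild type against 14, 3 and 9 in the knockout (chromosome 12, 26468746 to 26469746). The groups overlapped there, with 1 wild-type library above knockout replicate 2, and the gene was not tested.

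Isg15 lay in the opposite direction. Its 1 window, at the promoter (chromosome 4, 156200350 to 156201350, mm10), contains the 3 overlapping ISRE cores and held 36, 86 and 58 tags in wild type against 36, 35 and 27 in the knockout. After normalization every knockout library was below every wild-type library, at 36.0 ± 14.2 CPM in wild type and 17.0 ± 1.76 in the knockout. The log2 fold change was −1.08 (SE 0.40), with an edgeR quasi-likelihood adjusted p of 0.624 per gene and 0.892 per window. Wild-type replicate 2 was the highest, and without it the log2 fold change was −0.74. Per the file, this site came from the wild-type site list only.

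Among genes of ISG15 conjugation and ubiquitin ligation, 2 of 4 had a negative log2 fold change as Isg15 did and 2 a positive one, with 0 called. Usp18, the protease that removes ISG15 and restrains the type I receptor, held 32, 62 and 7 tags in wild type against 33, 18 and 41 in the knockout, with wide overlap and a log2 fold change of −0.34 (SE 0.55). Trim25, a ubiquitin ligase of the RIG-I pathway, held 96, 100 and 107 tags in wild type against 112, 91 and 66 in the knockout. Scaled to CPM these gave 61.2 ± 1.45 and 46.6 ± 10.9, without overlap because knockout replicate 1 came to 58.7 and wild-type replicate 2 to 59.8. Its log2 fold change was −0.39 (SE 0.29, edgeR adjusted p = 0.932). Dtx3l, a further ubiquitin ligase, and Trim30a, a TRIM-family protein, had log2 fold changes of 0.43 and 0.05 with overlapping groups.

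Parp9, the partner of Dtx3l among the ADP-ribosyl transferases, had 1 window, 15937 bp upstream, with 22, 32 and 21 tags in wild type against 13, 25 and 5 in the knockout. The groups were barely apart, wild-type replicate 3 at 11.99 CPM and knockout replicate 2 at 11.96, and the log2 fold change was −1.05 (SE 0.63, edgeR adjusted p = 0.915). The window at the Parp9 start (chromosome 16, 35938475 to 35939475) was not part of this value, because the table assigns it to the adjoining Dtx3l. It held 26, 19 and 36 tags in wild type against 34, 49 and 83 in the knockout. Its log2 fold change had the other sign, at 0.85 (SE 0.43, edgeR adjusted p = 0.998), with overlapping groups. Parp14, which neighbours Parp9, had a log2 fold change of 0.69 (SE 0.48) with overlap.

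The nucleic acid sensors went both ways. Ddx58, which encodes the RNA sensor RIG-I, held 49, 51 and 47 tags in wild type against 41, 40 and 42 in the knockout, or 29.8 ± 2.66 and 21.5 ± 2.38 CPM without overlap. The log2 fold change was −0.47 (SE 0.38, edgeR adjusted p = 0.951), and it had the other sign in the promoter window alone, at 0.62. Zbp1 held 88, 115 and 99 tags in wild type against 137, 173 and 129 in the knockout, or 60.9 ± 6.82 and 76.0 ± 5.95 CPM. Every knockout library was higher, with a fitted log2 value of 0.32 (SE 0.25) and an edgeR adjusted p of 0.947. Limited to windows within 10 kb of the TSS the value was 0.034, and within 1 kb the sign was again the other one, at −0.22. The Zbp1 windows 9707 to 28753 bp upstream of the TSS were annotated as intron, so they lay outside the Zbp1 gene. Dhx58 (30, 57 and 54 tags against 58, 133 and 43) and Ifih1 (88, 122 and 61 against 93, 90 and 95) overlapped between genotypes, at 0.49 and −0.18.

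**Figure D3:**
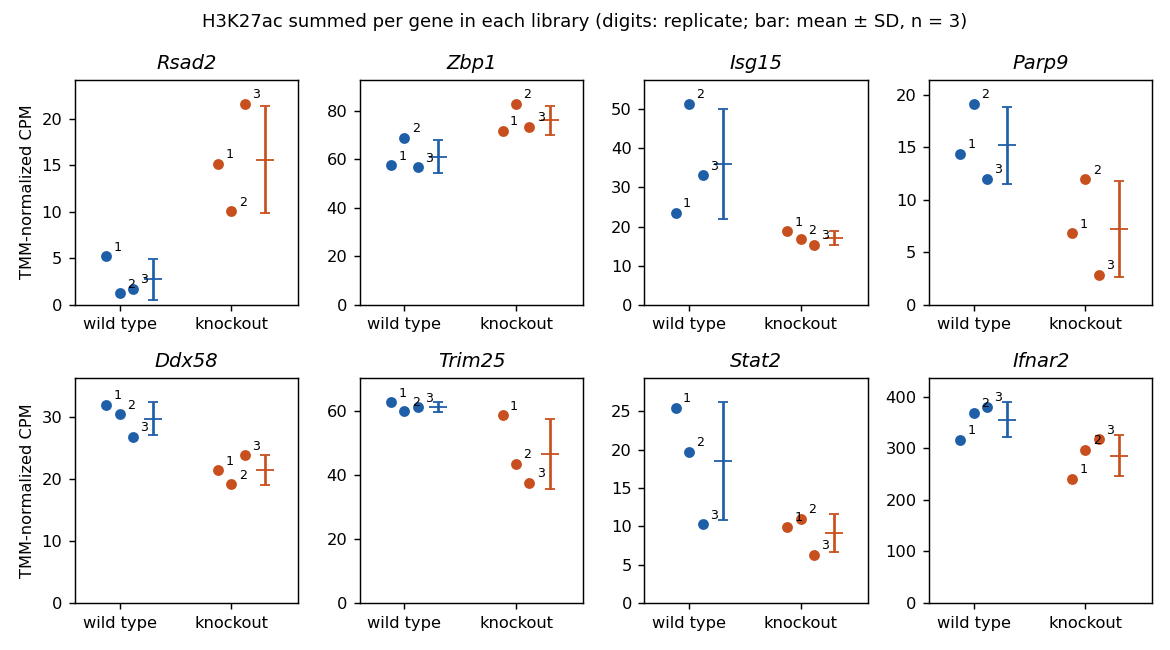
H3K27ac summed per gene in each library for 8 genes, the 6 whose genotypes did not overlap and Stat2 and Ifnar2. The y axis gives TMM-normalized CPM from 0, points are libraries numbered by replicate, and bars are mean ± SD (n = 3). Rsad2 and Zbp1 are higher in every knockout library, Isg15, Parp9, Ddx58 and Trim25 lower, and Stat2 and Ifnar2 overlap.

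The other antiviral effectors gave no gene without overlap. Bst2 held 54, 80 and 60 tags in wild type against 125, 120 and 70 in the knockout, a log2 fold change of 0.47 (SE 0.31), and the overlap came from knockout replicate 3. At its promoter window, which holds 2 ISRE cores, the tags were 36, 37 and 46 against 80, 99 and 47, without overlap after normalization (0.69, SE 0.33, edgeR adjusted p = 0.998). Ifitm3, which blocks viral entry at endosomal membranes, held 146, 190 and 232 tags in wild type against 221, 234 and 245 in the knockout, a log2 fold change of 0.10 (SE 0.21). Its windows differed among themselves. The one 11671 bp downstream of the TSS (chromosome 7, 140998573 to 140999573) held 36, 57 and 57 tags in wild type against 103, 95 and 84 in the knockout (0.70, SE 0.29, edgeR adjusted p = 0.998), while the window overlapping it had a log2 fold change of −0.20.

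Mx1, a dynamin-like antiviral GTPase, held 23, 31 and 14 tags in wild type against 25, 15 and 12 in the knockout (−0.61, SE 0.60). Oasl1, a regulator of Irf7 translation, held 25, 28 and 21 against 35, 21 and 36 (0.11, SE 0.49). The groups overlapped at both genes. Ifit1 and Ifit3, RNA-binding effectors induced early by interferon, were near the limit of the counts, with 3, 6 and 0 tags against 3, 3 and 17 for Ifit1 and 3, 17 and 17 against 22, 17 and 10 for Ifit3. Both were represented by 1 distal window each. Cxcl10, a chemokine that attracts T cells, held 78, 74 and 81 tags in wild type against 73, 96 and 99 in the knockout, a log2 fold change of −0.01 (SE 0.30). Most of its tags lay 4899 bp upstream, and its promoter held 11, 10 and 24 against 3, 14 and 9. Ifit2 held 18, 20 and 14 tags in wild type against 9, 28 and 34 in the knockout (0.24, SE 0.61), of which 5, 10 and 7 against 3, 14 and 15 lay at the promoter, with overlapping groups. The induced genes not named one by one (Mx2, Isg20, Xaf1 and Rtp4) had log2 fold changes from 0.05 to 0.53, with overlapping groups.

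The 5 genes without a window of their own are a limit of the table. The Oas1a, Oas2 and Oas3 genes of chromosome 5 (synthetases that activate the antiviral nuclease RNase L) lay 83154, 62216 and 34418 bp from the nearest window, and Ifi44 on chromosome 3 lay 355139 bp away. Oasl2 lay 3135 bp from a window, but the table assigns the 3 windows within 10 kb of it to the adjoining Oasl1. H3K27ac at these promoters was not analysed here.

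For Irf5, Irf2 and Irf1 the levels, summed over many windows, were high for the list and close between genotypes. Irf5 held 739, 805 and 718 tags over 12 windows in wild type against 921, 983 and 861 in the knockout, or 458 ± 41.7 and 481 ± 9.86 CPM, a log2 fold change of 0.07 (SE 0.11). Irf2 held 461, 497 and 533 tags over 16 windows and 523, 587 and 561 in the knockout (−0.05, SE 0.13). Irf1 held 268, 291 and 359 tags and 394, 311 and 287 (−0.10, SE 0.17). The groups overlapped at all 3 genes, and their SEs were smaller than those of the effectors, which had fewer tags.

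Single windows of these genes varied more than their sums. In an Irf2 intron 53124 bp from the TSS (chromosome 8, 46792369 to 46793369) the tags were 16, 25 and 15 in wild type against 25, 49 and 67 in the knockout (1.13, SE 0.47), and 33245 bp from the TSS they were 7, 7 and 0 against 24, 27 and 20 (2.07, SE 0.86). Nearer the TSS, at 30298 bp, an Irf2 window went the other way, from 19, 29 and 35 tags to 22, 7 and 21 (−0.90, SE 0.57). Upstream of Irf5, 2389 bp from the TSS, there were 113, 148 and 87 tags in wild type against 179, 206 and 163 in the knockout (0.43, SE 0.22). The edgeR adjusted p of each of these windows was 0.998.

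The IRFs with few tags were Irf3, Irf7 and Irf9. Irf3 held 10, 7 and 20 tags in wild type against 14, 12 and 0 in the knockout (−0.74, SE 0.93). Irf7 held 30, 27 and 48 against 38, 37 and 49 (0.05, SE 0.42), and Irf9 held 41, 39 and 65 against 24, 42 and 52 (−0.49, SE 0.41). Stat2, the partner of IRF9 in the interferon-induced complex, had only its promoter window (chromosome 10, 128269945 to 128270945), with 39, 33 and 18 tags in wild type against 19, 23 and 11 in the knockout. At 18.5 ± 7.68 and 9.07 ± 2.49 CPM it had the lowest fold change of this group (−1.01, SE 0.54, edgeR adjusted p = 0.897), and the groups overlapped through wild-type replicate 3.

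The receptor genes were tested as the entry point of the pathway. Ifngr2 held 1318, 1590 and 1595 tags over 15 windows in wild type against 1792, 1807 and 1813 in the knockout, or 908 ± 45.1 and 945 ± 83.7 CPM, the highest level per gene of the list (0.06, SE 0.09). Ifngr1 held 341, 375 and 388 tags and 420, 472 and 373 (−0.02, SE 0.15). Its intronic windows 2771 and 4864 bp from the TSS differed in opposite directions, with log2 fold changes of 1.44 and −0.67. Ifnar1 held 28, 38 and 77 tags and 42, 37 and 26 (−0.64, SE 0.42). All 3 genes overlapped between genotypes.

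Ifnar2 was the receptor gene with an unadjusted p below 0.05. It held 484, 616 and 666 tags over 12 windows in wild type against 460, 621 and 558 in the knockout, or 355 ± 34.1 and 285 ± 39.7 CPM. The log2 fold change was −0.32 (SE 0.14, edgeR adjusted p = 0.803), and knockout replicate 3 (317.5 CPM) lay just above wild-type replicate 1 (316.2 CPM). The difference lay in distal windows. An intergenic window 18085 bp upstream (chromosome 16, 91354198 to 91355198) held 99, 111 and 112 tags in wild type against 63, 115 and 78 in the knockout (−0.56, SE 0.26, edgeR adjusted p = 0.998), and the windows 18400 and 17426 bp upstream, which overlap it and share tags with it, had −0.70 and −0.51. An intronic window 13016 bp downstream held 41, 39 and 56 tags against 50, 11 and 32, with overlapping groups (−0.73, SE 0.45, edgeR adjusted p = 0.998). At the promoter window the tags were 34, 57 and 59 against 59, 102 and 79, with a log2 fold change of 0.47 (SE 0.32). Limited to windows within 10 kb or 1 kb of the TSS the per-gene value was 0.05 and 0.34.

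Ifnar2, Il10rb (a chain of the interleukin-10 and type III interferon receptors), Ifnar1 and Ifngr2 lie in this order on chromosome 16 within 191 kb. The 3 highest wild-type windows of the interval were at 149 to 150 kb from the Ifnar2 start, between Ifnar1 and Ifngr2. The table names the microRNA gene Mir6367 as nearest to them, so they entered no receptor gene. The strongest held 48.5 ± 14.5 CPM on total tags in wild type and 44.1 ± 13.9 in the knockout (−0.14, SE 0.22), and the groups overlapped. These windows were singled out after their values were seen.

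**Figure D4:**
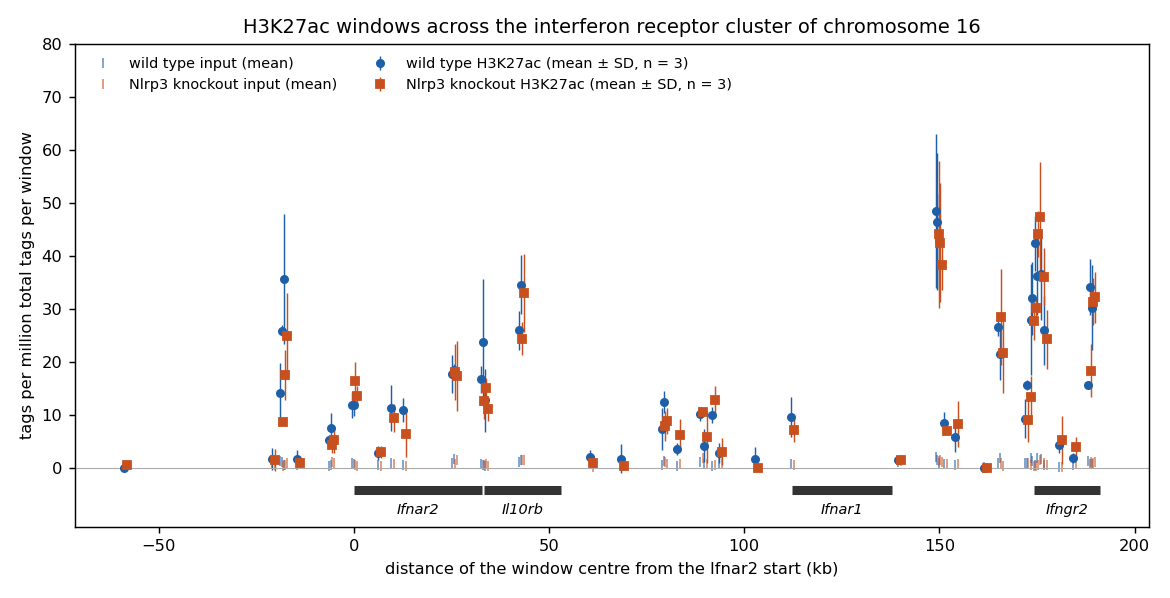
H3K27ac in 53 windows across the receptor cluster of chromosome 16. The x axis is the distance of a window from the Ifnar2 start in kb and the y axis CPM on total tags per window; symbols are group means with bars of ± SD (n = 3), wild type drawn slightly to the left and the knockout to the right, and thin bars are mean input. Black bars mark the genes. The knockout means lie lower in the 3 windows about 18 kb upstream of Ifnar2 and at an Il10rb promoter window (15.2 against 23.8) and higher in an Ifngr2 window 1121 bp from its TSS (47.5 against 36.3).

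IRF, STAT and receptor windows made up 88 of the 174 windows and held 73.8% to 78.4% of the H3K27ac tags of the whole list in the 6 libraries, against 47.9% to 55.4% of its input tags. Overlapping windows share tags, so in these shares and in the sums per gene some tags count more than once. Of the 174 windows 61 were annotated as intron, 54 as intergenic and 43 as promoter. By the site lists that the windows were merged from, 134 stood in both genotypes, 22 in wild type only and 18 in the knockout only. Tested windows of the wild-type list alone had a median log2 fold change of 0.14, with 9 of 12 positive, against 0.0017 over all tested windows of that list. Those of the knockout list alone had 0.07, with 5 of 10 positive, against 0.033 over all.

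A longer list of 129 further pathway symbols gave the same count of calls. The list holds Tmem173 and Mb21d1 also under the names Sting1 and Cgas, which had no window. Of these, 104 had a window, 95 were tested and 0 were called by edgeR. At an unadjusted p below 0.05 edgeR found 1 higher and 6 lower, against 312 higher and 389 lower of all 12148 tested genes (5.77% in both directions). DESeq2 called 0 of 103, with 6 at that level, against 776 of 15760 genes in all. Taken over both directions these counts lie near the background. Without overlap between genotypes, 2 of the 95 lay higher and 8 lower, against 5.47% and 5.83% of all tested genes. The median log2 fold change was 0.03. Stxbp3 had the smallest p, with 386, 402 and 342 tags in wild type against 352, 324 and 315 in the knockout (−0.41, SE 0.16, edgeR adjusted p = 0.734). Next came Ifi204, with 47, 51 and 59 tags against 33, 24 and 36, without overlap after normalization (−0.95, SE 0.40, edgeR adjusted p = 0.780). Phf11d followed, with 38, 33 and 85 tags against 41, 31 and 18 and overlapping groups (−0.997, SE 0.44, edgeR adjusted p = 0.803). Irf8, the lineage factor of microglia and a partner of other IRFs, held 622, 725 and 776 tags and 692, 716 and 643, without overlap after normalization (−0.26, SE 0.12, edgeR adjusted p = 0.815). Socs1, the feedback inhibitor of interferon signalling, lay in the other direction, with 82, 62 and 129 tags and 153, 185 and 141 (0.60, SE 0.27, edgeR adjusted p = 0.826). Irf8 and Socs1 were named after their values were seen. The receptor-bound kinase genes Jak1 and Tyk2 had log2 fold changes of −0.13 (SE 0.14) and −0.30 (SE 0.23), both with overlapping groups.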

How the data were processed

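The authors deposited unnormalized tag counts for each library and 1000-bp window. HOMER made these counts on mm10 over merged ATAC sites, per the file headers. The submitters' processing notes also name DESeq2. How reads were aligned and duplicates handled, and with which tool versions, is not given in the sources used here. Groups came from the genotype and antibody labels. Tags were summed per gene and tested with edgeR 4.0.16 in R 4.3.3 (TMM normalization, filterByExpr, quasi-likelihood fit of 3 against 3 libraries, no covariate, Benjamini-Hochberg adjustment over 12148 genes or 40370 windows). DESeq2 1.42.0 was an alternative. The edgeR fit was also tested on simulated data. Windows cover accessible sites only, 77 of the 174 overlap a neighbour and share tags, and counts without molecular identifiers carry counting error that the libraries' depth sets. A window goes to 1 gene, the nearest.

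The genes and lists were chosen with earlier results of these data known. Values in every library were given for genes without overlap, for the 5 highest and 5 lowest wild-type promoters and for a fixed set of 24 genes. Alternatives were DESeq2, total-tag scaling, no filter, a replicate block, shorter distances and leaving out each library.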

Additional observations from a re-analysis of the deposited data

How the results depend on the processing

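Calls of the interferon genes, their windows and the 129 further pathway symbols were 0 under every alternative run. In 304 refits of 26 named genes 0 were called (smallest adjusted p 0.170), and the sign changed in 28, over 15 genes. Over all genes the 25 calls became 16 with total-tag scaling, 48 without the filter, 15 with the replicate block, 11 within 10 kb, 1 within 1 kb and 8 to 18 with 1 library left out. Over all windows the 24 calls became 70 with DESeq2, 68 without the filter and 10 to 29 with 1 library left out. The median of the list (0.05) was −0.0053 within 1 kb and ranged from −0.14 to 0.059 with 1 library left out, lowest without knockout replicate 3. Without wild-type replicate 1, the library that held 0 Y-linked tags, the median was −0.0062. Rsad2, Isg15 and Ifnar2 then had log2 fold changes of 3.36, −1.31 and −0.39. With CPM on tags in windows, 12 promoters lay above input in wild type and 12 in the knockout, in place of 23 and 24. On that scale inputs gain because only 8.31% to 9.32% of their tags lie in windows. Of the 11591 promoter windows of all genes, 4481 and 4922 lay above input on it. On total tags with 1 library left out the counts were 24 to 26 and 25 to 28, against 8960 to 9332 and 9158 to 9431 of all promoter windows. The cause of the other shifts was not tested.

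Within 1 kb the log2 fold changes that turned were those of Zbp1 (−0.22), Ddx58 (0.62), Ifngr2 (−0.0053), Irf5 (−0.16), Ifngr1 (0.13), Ifnar2 (0.34), Irf2 (0.16) and Irf7 (−0.082), and within 10 kb those of Ifnar2 (0.048), Irf2 (0.089) and Ifitm3 (−0.45). With 1 library left out the ranges that crossed 0 were −0.010 to 0.12 for Ifngr2, −0.0064 to 0.11 for Irf5, −0.041 to 0.74 for Dhx58, −0.21 to 0.62 for Ifit2, −0.17 to 0.28 for Irf7, −0.83 to 0.40 for Usp18, −0.23 to 0.51 for Ifit3, −0.084 to 0.37 for Oasl1, −0.16 to 0.11 for Cxcl10 and −0.010 to 0.22 for Ifitm3.

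Same-numbered libraries of the 2 genotypes did not deviate together (correlations 0.0027, 0.012 and −0.0067), so no pairing by replicate number was visible in these values. Whether they were collected or processed together is not known from this, and the replicate block changed no call of the interferon genes. Low tag counts limit many of these genes: Rsad2, Cmpk2, Ifit1, Ifit2, Ifit3, Mx1, Oasl1, Parp9, Xaf1, Irf3 and Stat2 held fewer than 40 tags in every library.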
